A study of Mus musculus with 2 samples.

Results

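A set of 10 genes of major histocompatibility complex (MHC) class II presentation was followed in CD45+ immune cells from mouse liver tumors, out of 32285 genes counted in both libraries. They were chosen by name, with earlier results of these data known. All 10 had UMIs in both libraries: H2-Aa, H2-Ab1, H2-Eb1, Cd74, Ciita, H2-DMa, H2-DMb1, H2-DMb2, H2-Oa and H2-Ob. A UMI (unique molecular identifier) is a tag that lets copies of the same captured RNA molecule be counted once.

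The tumors were lenvatinib-resistant hepatocellular carcinomas (HCC) in male wild-type C57BL/6 J mice, aged 6 to 8 weeks when the model was set up. The tumors were induced by hydrodynamic tail vein injection of plasmids that overexpress MYC and disrupt Trp53 in liver cells. Lenvatinib, an inhibitor of receptor tyrosine kinases, was given at 30 mg/kg from 12 days after injection for 25 days in both groups, before the mice were divided into treatment arms. One library came from mice kept on lenvatinib (30 mg/kg), and the other, called combo, from mice given lenvatinib (30 mg/kg) with palbociclib (100 mg/kg), an inhibitor of the cell cycle kinases CDK4 and CDK6. Each condition had 1 library, the number of mice behind it is not named in the sources used here, and treatment and library cannot be told apart. No p-value was computed for that reason, and every interval below is an exact 95% interval that covers counting error only.

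Class II molecules show peptides from the endosome to CD4 T cells. H2-Aa and H2-Ab1 encode the chains of I-A, and H2-Eb1 encodes the beta chain of I-E, whose alpha chain is not made in C57BL/6 mice because its gene is defective. Cd74 encodes the invariant chain, which fills the groove until the peptide exchanger H2-DM (H2-DMa with H2-DMb1 or H2-DMb2) replaces the last piece of it, and H2-DM is in turn held back by H2-DO (H2-Oa with H2-Ob). Ciita is the transactivator that switches on the genes of the class II chains, Cd74 and H2-DM in B cells, dendritic cells and stimulated macrophages. It does not bind DNA itself but docks on factors that sit on short boxes before each gene.

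Of the 10 genes, 8 lie within 224 kb on chromosome 17 of the mm10 genome (chr17:34092340-34316674), in the order H2-Oa, H2-DMa, H2-DMb2, H2-DMb1, H2-Ob, H2-Ab1, H2-Aa and H2-Eb1. H2-Aa (chr17:34282744-34287823) is on the minus strand and the other 7 are on the plus strand. Ciita (chr16:10480059-10528418) and Cd74 lie on other chromosomes. The promoters of 6 genes are shown, in which any of the letter patterns described below lay within the bases printed. Each line gives the bases from -140 to -21 before the RefSeq transcription start (GRCm38.p6), 5′ to 3′ on the gene's own strand.

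H2-Aa (chr17:34287844-34287963, minus): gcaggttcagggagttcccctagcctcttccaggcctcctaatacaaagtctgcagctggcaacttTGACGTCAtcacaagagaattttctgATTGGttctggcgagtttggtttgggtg
H2-Eb1 (chr17:34305727-34305846, plus): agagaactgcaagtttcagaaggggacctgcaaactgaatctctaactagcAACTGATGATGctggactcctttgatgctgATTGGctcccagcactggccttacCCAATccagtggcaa
H2-DMb1 (chr17:34153051-34153170, plus): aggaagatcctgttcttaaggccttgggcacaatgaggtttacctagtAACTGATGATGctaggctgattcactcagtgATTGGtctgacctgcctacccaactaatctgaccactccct
H2-DMb2 (chr17:34145109-34145228, plus): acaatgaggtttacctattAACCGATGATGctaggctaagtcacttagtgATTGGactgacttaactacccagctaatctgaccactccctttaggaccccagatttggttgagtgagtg
H2-Ob (chr17:34238765-34238884, plus): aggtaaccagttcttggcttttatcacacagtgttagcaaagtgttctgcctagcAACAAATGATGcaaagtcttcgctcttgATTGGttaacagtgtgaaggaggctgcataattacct
H2-Oa (chr17:34092239-34092358, plus): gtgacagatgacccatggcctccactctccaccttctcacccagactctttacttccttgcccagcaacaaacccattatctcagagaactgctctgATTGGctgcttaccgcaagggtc

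Capitals mark 3 letter patterns searched on both strands, chosen after these promoters had been read. The first, AAC with ATGATG 2 bases later, resembles the X box bound by the RFX complex. The second is ATTGG, the core of the Y box bound by NF-Y. It reads CCAAT when it lies on the other strand. The third pattern, TGACGTCA, is the site of CREB-type factors. The X-like pattern stood in 0.137% of 32851 RefSeq promoters, ATTGG in 37.4% and TGACGTCA in 1.79%. The entries behind these shares were longer than the bases printed above and ran past the transcription start. The shares are therefore not matched in length to the promoters shown, and a longer stretch gives more room for a match. The X-like pattern followed by ATTGG within 60 bases on the same strand was found in 6 promoters of 32851, and 4 of the 6 were H2-Eb1, H2-DMb1, H2-DMb2 and H2-Ob. In H2-Aa, TGACGTCA stood at -74 to -67 and ATTGG at -48 to -44. H2-Oa held ATTGG at -43 to -39 and neither of the other patterns. No sequence entry matched H2-Ab1, Ciita or Cd74, and H2-DMa had 2 annotated starts, 1 of them with ATTGG at -198 to -194, which lies outside the bases shown for the other genes.

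Cells were sorted into gates by 1 gene each, at 2 or more UMIs of that gene in a cell that passed the filter (at most 6000 genes and at most 25% mitochondrial UMIs). Cd79a, a part of the B-cell receptor, gave the B gate (515 cells under lenvatinib and 597 under combo). Csf1r gave the monocyte gate (139 and 670), C1qa the macrophage gate (121 and 60), Xcr1 the cDC1 gate (32 and 24), Cd209a the cDC2 gate (85 and 37), Fscn1 the mature dendritic gate (19 and 6) and Siglech the plasmacytoid gate (310 and 299). Cd3e gave the T gate (4145 and 3238), which served as background with NK (Ncr1) and neutrophil (Cxcr2) gates, since these mouse cells carry little class II. Levels are CPM, the UMIs of a gene scaled to 1000000 UMIs of its gate. Counting at the 3′ end takes 1 tag per molecule, so levels were not divided by transcript length.

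The filter left 14201 of 14509 barcodes under lenvatinib and 11613 of 11989 under combo, with medians of 5541 and 5754 UMIs per cell, and 49 barcodes occurred in both libraries. A UMI of Ptprc, the gene of CD45, was found in 95.4% of cells in each library. Cells that met no gate were 47.0% of the total under lenvatinib and 41.3% under combo, and they held 37.8% and 38.3% of all class II UMIs. The neutrophil gene S100a8 was higher under combo in gates that should lack it, at 645 CPM under lenvatinib and 4583 CPM under combo in the T gate, 174 and 14486 CPM in the B gate, and 111 and 6844 CPM in the cDC2 gate. Its part in the results was not tested, and the values without cells that carry other neutrophil genes are given in the closing section.

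The gates were checked against their marker genes. In both libraries Ms4a1 and Pax5 were highest in the B gate, Clec9a in the cDC1 gate, Clec10a in the cDC2 gate, and Ccr9, Bst2 and Tcf4 in the plasmacytoid gate. Other markers were shared, since Flt3 was at 124 and 97.6 CPM in cDC2 but at 156 and 149 CPM in cDC1, and Batf3 was at 205 CPM in cDC1 and 310 CPM in Fscn1-gated cells under lenvatinib. The C1qa gate held C1qb and C1qc at 1436 CPM or more, but the Kupffer cell genes Vsig4, Clec4f, Timd4 and Marco were all at 0 under lenvatinib and between 2.33 and 23.3 CPM under combo. The Fscn1 gate held Ccr7 at 3356 CPM and Cacnb3 at 830 CPM under lenvatinib, whereas its 6 cells under combo had no UMI of Ccr7, Ccl22, Cacnb3 or Il4i1. Those 6 cells are therefore called Fscn1-gated cells only, and their values are not read as mature dendritic cells.

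Summed over the 10 genes, class II was highest in the conventional dendritic gates, where it made up over 2% of all UMIs. The cDC1 gate held 31572 CPM under lenvatinib and 34607 CPM under combo, and the cDC2 gate 24368 and 34855 CPM. Under combo these 2 gates differed by less than counting error. The B gate held 12163 CPM under lenvatinib and 16987 CPM under combo. The macrophage gate held 6564 and 9552 CPM, the plasmacytoid gate 6033 and 6567 CPM, and the monocyte gate 4171 and 2339 CPM. Fscn1-gated cells stood at 15239 CPM under lenvatinib, between cDC2 and B. The background was 164 CPM under lenvatinib and 233 CPM under combo in the T gate, 217 and 268 CPM in the NK gate, and 281 and 131 CPM in the neutrophil gate.

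**Figure D1:**
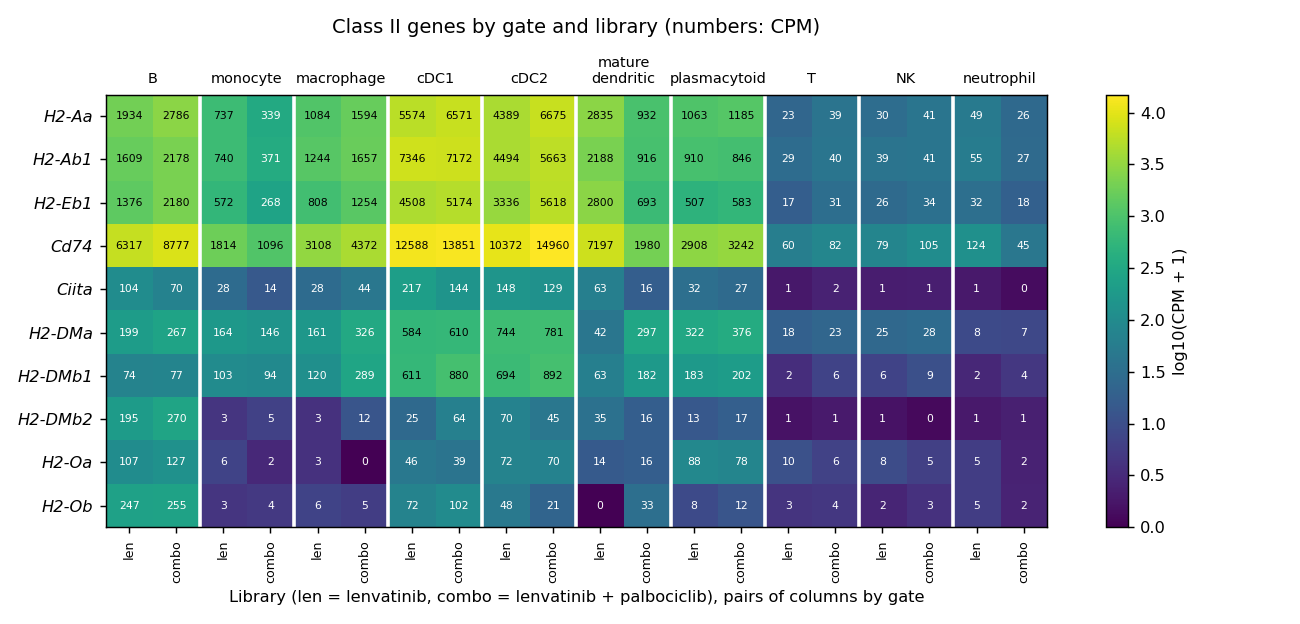
Level of each class II gene (rows) in each gate and library (columns), as CPM printed in the cells and as log10(CPM + 1) in color. Cd74 is the brightest row in every antigen-presenting gate, H2-DMb2, H2-Oa and H2-Ob are brightest in the B gate, and the T, NK and neutrophil columns are dark throughout.

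Cd74 gave the largest count of the 10 genes in each antigen-presenting gate, at 12588 CPM in the cDC1 gate and 1814 CPM in the monocyte gate under lenvatinib. Its share of the UMIs of Cd74, H2-Aa, H2-Ab1 and H2-Eb1 differed between gates. It was lowest in cDC1, at 41.9% (41.2 to 42.6) under lenvatinib and 42.3% (41.6 to 43.0) under combo. The B gate stood at 56.2% (55.6 to 56.8) and 55.1% (54.7 to 55.5), and plasmacytoid at 54.0% (53.2 to 54.8) and 55.4% (54.7 to 56.1). The B gate includes plasma-type cells, described below, and gave 54.3% and 53.5% without them. H2-Aa, H2-Ab1 and H2-Eb1 followed the same order of gates as Cd74 under lenvatinib, with 1 exception, H2-Eb1, which stood at 572 CPM in the monocyte gate and 507 CPM in the plasmacytoid gate. Under lenvatinib, Ciita was counted at a small fraction of Cd74, H2-Aa, H2-Ab1 and H2-Eb1. In the cDC1 gate it stood at 217 CPM, above H2-DMb2 (25.5 CPM), H2-Oa (46.4 CPM) and H2-Ob (71.9 CPM). Ciita was at 148 CPM in cDC2, 104 CPM in B, 31.9 CPM in plasmacytoid, 28.3 CPM in monocyte and 27.5 CPM in macrophage. In the T gate it stood at 0.845 CPM. The last 3 of the antigen-presenting gates did not differ in Ciita beyond counting error (25.6 to 39.3, 19.5 to 39.7 and 16.6 to 43.0 CPM).

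Single cells within a gate were far from uniform. After every cell was thinned to 2000 UMIs, with shallower cells left out (38 and 25 in the B gate, 9 and 29 in the monocyte gate, and 47 and 16 in the macrophage gate), the median cell of the cDC1 gate held 64 class II UMIs under lenvatinib and 61.5 under combo, and the median cell of the B gate 37 and 50.5. In the plasmacytoid gate the median was 8 and 11. The 17 Fscn1-gated cells deep enough under lenvatinib had a median of 5 and an upper quartile of 30, so that a few cells carried much of their summed level. In the macrophage gate the median was 3.5 and 11, with 10% of cells at 48.2 or more and 50.4 or more. The monocyte gate had a median of 1 UMI in both libraries, which is near the detection limit. In the T gate, 10 class II UMIs were reached by 2 cells of 4064 (lenvatinib) and 5 cells of 3203 (combo).

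**Figure D2:**
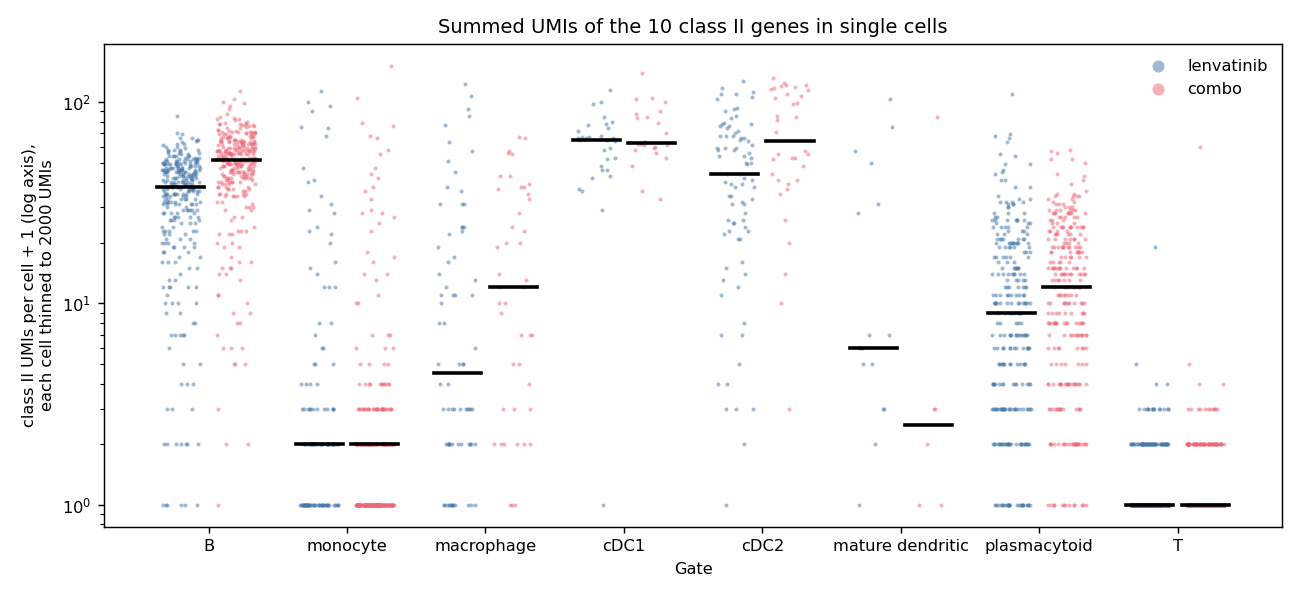
Summed UMIs of the 10 genes in single cells, each thinned to 2000 UMIs (vertical log axis, value + 1), by gate and library, with at most 300 cells drawn per group at even steps of rank and black lines at the medians of all cells. The cDC1 cells form a narrow band around a median of 64 UMIs under lenvatinib and 61.5 under combo, whereas monocyte and macrophage cells run from 0 UMIs up to the level of the cDC1 cells.

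H2-DMb1 and H2-DMb2 are neighboring copies that encode alternative beta chains of the peptide exchanger, and they were used in opposite proportion in B cells and in every other gate with enough UMIs. H2-DMb2 took 72.6% (69.1 to 75.8) of the UMIs of the pair in the B gate under lenvatinib and 77.9% (75.3 to 80.2) under combo. In the monocyte gate it took 3.23% and 5.40%, in macrophage 2.35% and 3.88%, in cDC1 4% and 6.76%, in cDC2 9.18% and 4.79%, and in plasmacytoid 6.74% and 7.85%. The highest upper end of these 10 intervals was 11.5%, in the cDC2 gate under lenvatinib. As levels, H2-DMb2 stood at 195 CPM under lenvatinib and 270 CPM under combo in the B gate, where H2-DMb1 stood at 73.7 and 76.6 CPM. In the cDC1 gate the order was turned, with H2-DMb2 at 25.5 and 63.8 CPM and H2-DMb1 at 611 and 880 CPM.

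The promoters printed above for H2-DMb1 and H2-DMb2 hold the X-like pattern and ATTGG in the same order, with 31 bases from the start of the first to the start of the second in each. The 250 bases before their starts were 59.8% identical when aligned end to end. The X-like pattern began at -92 in H2-DMb1 and at -121 in H2-DMb2, so the 2 sequences were offset. Their alignment ran to 291 columns, and its gaps count as differences in that share. Reads from such copies can be mistaken for each other. Of the 50-base stretches in the last 500 bases of the longest coding H2-DMb1 transcript, 20.4% also occurred in an H2-DMb2 transcript, and no stretch from the end of H2-DMb2 occurred in H2-DMb1. How the counting treated such reads was not tested.

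H2-Oa and H2-Ob, whose products pair to form the H2-DM inhibitor H2-DO, were highest in the B gate. H2-Oa stood at 107 CPM under lenvatinib and 127 CPM under combo there, and H2-Ob at 247 and 255 CPM. Together they took 43.1% (41.0 to 45.2) of the UMIs of H2-DO and H2-DM genes in the B gate under lenvatinib and 38.4% (36.7 to 40) under combo, against 15.7% and 13.1% in plasmacytoid, 8.84% and 8.30% in cDC1, 7.39% and 5.07% in cDC2, and 3.36% and 2.40% in monocyte cells. The macrophage gate had 6 UMIs of the pair under lenvatinib and 2 under combo, and H2-Oa was at 0 there under combo (exact interval 0 to 8.58 CPM).

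The 2 chains of H2-DO were not counted in 1 proportion. H2-Ob took 69.7% (66.7 to 72.7) of the pair's UMIs in the B gate under lenvatinib and 66.8% (64.2 to 69.4) under combo, and 60.8% (49.1 to 71.6) and 72.1% (61.4 to 81.2) in cDC1. In plasmacytoid cells it took 8.02% (5.03 to 12) and 13.0% (9.38 to 17.3), where H2-Oa stood at 88.3 CPM under lenvatinib and 77.8 CPM under combo and H2-Ob at 7.70 and 11.6 CPM. The cDC2 gate lay between, at 40% (31.0 to 49.5) and 23.4% (12.3 to 38.0).

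**Figure D3:**
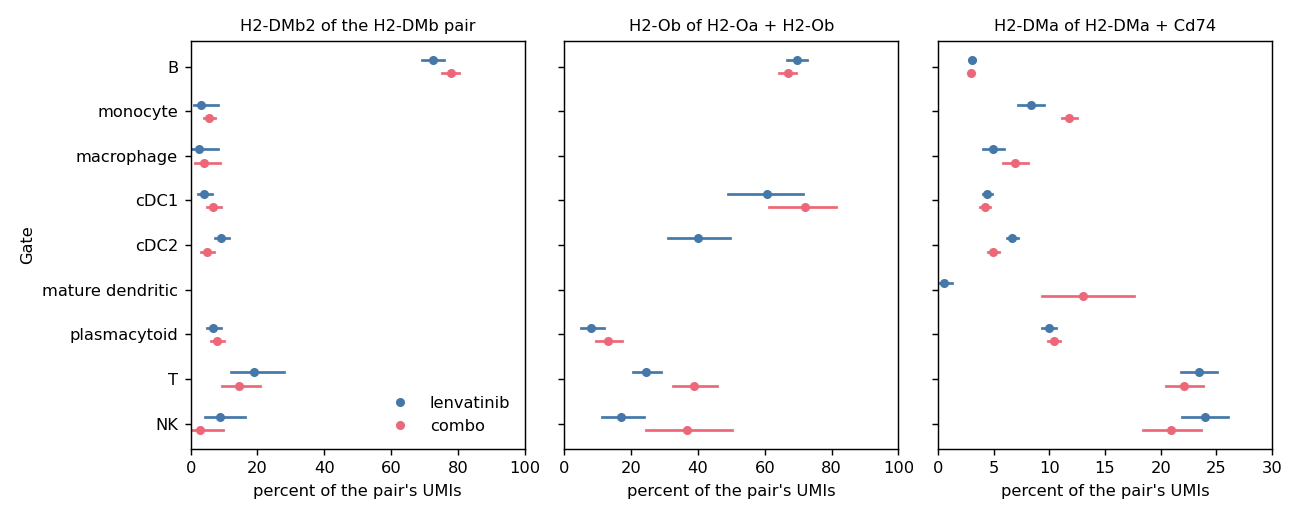
Share of H2-DMb2 in the H2-DMb pair (left), of H2-Ob in the H2-DO pair (middle) and of H2-DMa in the UMIs of H2-DMa and Cd74 (right, axis to 30%), by gate and library, with exact 95% intervals for counting error and no point where both genes together had under 50 UMIs. B cells stand apart at 72.6% and 77.9% in the left panel, plasmacytoid cells are low at 8.02% and 13.0% in the middle panel, and T and NK cells lie above 20% in the right panel.

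T and NK cells gave low levels of every member, but not in the proportions of the antigen-presenting gates. H2-DMa took 23.4% (21.8 to 25.1) of the UMIs of H2-DMa and Cd74 in the T gate under lenvatinib and 22.1% (20.5 to 23.8) under combo, and 23.9% and 20.9% in the NK gate. The highest share among antigen-presenting gates was 9.96% (9.34 to 10.6), in plasmacytoid cells, under lenvatinib, and 13.0% (9.30 to 17.6), in Fscn1-gated cells, under combo. H2-Oa took 14.3% (12.9 to 15.8) and 6.61% (5.58 to 7.76) of the UMIs of H2-Oa and Cd74 in the T gate, against at most 2.95% in any antigen-presenting gate. H2-DMb1, set against Cd74 in the same way, took 3.99% and 6.79% in the T gate, within the range of those gates. The part of free RNA in these values was not tested.

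The libraries were then compared to ask whether palbociclib, added to lenvatinib, went with another level of class II. A gene was called higher or lower in a gate when it had at least 50 UMIs over both libraries and its CPM differed at least 1.5-fold. Of 70 pairs of a member and an antigen-presenting gate, 57 had 50 UMIs, and of these 8 were higher under combo, 12 were lower and 37 were neither. The 13 pairs left out were H2-DMb2, H2-Oa and H2-Ob in the monocyte, macrophage and mature dendritic gates, Ciita in the last 2 of these, and H2-DMa and H2-DMb1 in the mature dendritic gate.

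**Figure D4:**
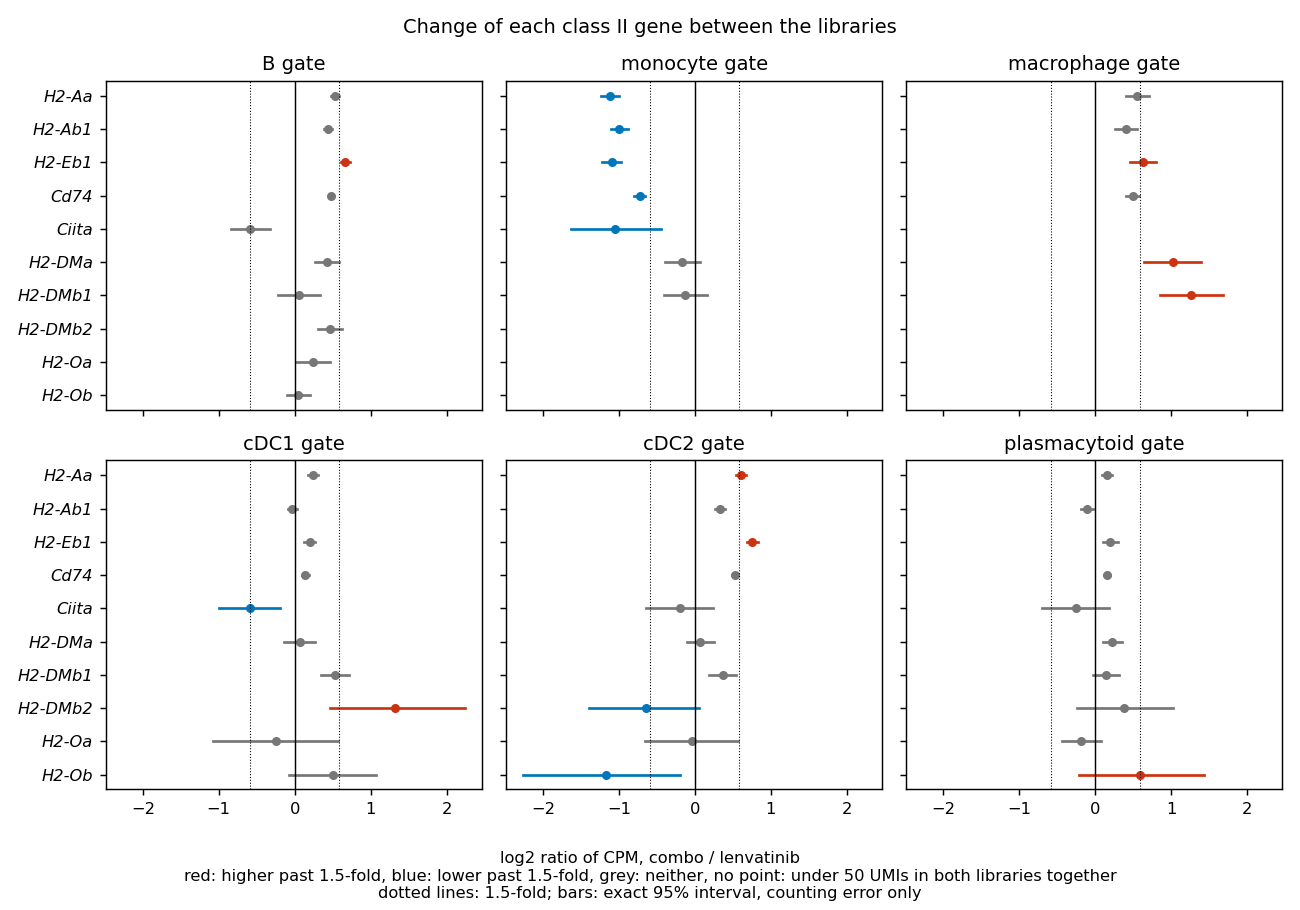
Log2 ratio of CPM, combo over lenvatinib, for each class II gene in 6 gates, with exact 95% intervals for counting error and dotted lines at 1.5-fold. All 5 blue points of the monocyte gate lie left of the line, at ratios of 0.460 to 0.604, and the macrophage gate has 3 red points, at 1.55 to 2.40.

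Summed over the monocyte gate, class II was lower under combo, and H2-Aa, H2-Ab1, H2-Eb1, Cd74 and Ciita were lower together. Parts of the gate differed, as given below. H2-Aa was at 737 CPM under lenvatinib and 339 CPM under combo (ratio 0.460, 0.426 to 0.498). H2-Ab1 gave a ratio of 0.502, H2-Eb1 0.468, Cd74 0.604 and Ciita 0.481 (0.322 to 0.737), the last on 33 and 99 UMIs. The genes of the peptide exchanger did not follow, with H2-DMa at 164 and 146 CPM (0.891, 0.763 to 1.04) and H2-DMb1 at 103 and 93.9 CPM (0.913, 0.751 to 1.12). Thus 5 of 7 members with enough UMIs were lower and none was higher, where 14.2% of all genes in the gate were lower and 6.65% were higher. The median log2 ratio was -0.996 over these 7 members and -0.12 over all genes of the gate.

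The make-up of the gate moved as well. Of its own marker list 2 of 5 genes were higher under combo and none was lower, with Chil3 at 790 and 3694 CPM, and 3 of 5 neutrophil genes were higher and 1 lower. Of the cDC2 markers with enough UMIs 2 of 4 were lower, among them Itgax (49.7 and 17.04 CPM), and Ccr7, a receptor of migrating dendritic cells, was at 29.1 and 3.71 CPM. All 4 T-cell and all 3 NK markers with enough UMIs were lower too. Their part in the class II values was not tested.

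Parts of the gate differed in direction. Of the monocyte-gated cells, 34.5% under lenvatinib and 29.3% under combo had no UMI of Ly6c2, a gene of classical monocytes, and in them class II fell from 13116 to 5443 CPM (ratio 0.415, 0.398 to 0.433). These were 48 and 196 cells, and they held 70.4% of the gate's class II UMIs under lenvatinib and 37.0% under combo. In the 21 and 103 cells with 1 Ly6c2 UMI class II was higher under combo, at 2507 and 4581 CPM (1.83, 1.64 to 2.04), and these cells held 7.62% and 21.7% of the gate's class II UMIs. In cells with 2 or more Ly6c2 UMIs, class II was at 1412 and 1323 CPM (0.937, 0.879 to 1), while H2-Eb1 among its genes was at 83.1 and 135.7 CPM (1.63, 1.26 to 2.15). Such cells made up 50.4% and 55.4% of the gate and held 22.0% and 41.3% of its class II UMIs. Cells with at least 10 class II UMIs after thinning made up 18.5% (12.2 to 26.2) of the gate under lenvatinib and 8.89% (6.804 to 11.4) under combo, and 27.3% and 17.01% before thinning. Cells with a UMI of Flt3, a receptor of dendritic cells, were 13 of 139 under lenvatinib and 41 of 670 under combo and held 35.3% and 27.8% of the gate's class II UMIs. The ratio was 0.604 (0.581 to 0.628) without them and 0.583 (0.552 to 0.617) in them alone. These splits were chosen after the data had been seen. Without cells that carry neutrophil genes, the ratio of the gate on the log2 scale was -0.58, no longer past 1.5-fold.

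Macrophage-gated cells held more of the peptide exchanger under combo. H2-DMa was at 161 CPM under lenvatinib and 326 CPM under combo (ratio 2.03, 1.57 to 2.62) and H2-DMb1 at 120 and 289 CPM (2.40, 1.80 to 3.21). H2-Eb1 was at 808 and 1254 CPM (1.55, 1.38 to 1.75), whereas H2-Aa (1.47), H2-Ab1 (1.33) and Cd74 (1.41) remained under 1.5-fold. So 3 of 6 members with enough UMIs were higher and none was lower, against 12.9% of all genes higher and 21.1% lower. The make-up of this gate also moved. Of 6 monocyte markers with enough UMIs 3 were higher in it under combo and 1 was lower. Among the higher were Ccr2 at 139 and 531 CPM and Chil3 at 39.1 and 2092 CPM. Of 4 neutrophil markers 3 were higher and 0 were lower (list summed, 4666 and 13480 CPM). Of 3 macrophage markers besides C1qa 1 was lower and 0 were higher (list summed, 6272 and 4377 CPM). The NK gene Gzma was at 374 and 25.6 CPM. Their part in the class II values was not tested. The gate held 121 and 60 cells.

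In the B gate, H2-Eb1 was the single member called, at 1376 CPM under lenvatinib and 2180 CPM under combo (ratio 1.58, 1.52 to 1.65). The other classical chains and Cd74 lay between 1.35 and 1.44. Over all genes of the gate, 3.89% were higher and 31.1% were lower, and the median log2 ratio was -0.35, so that the members' median of 0.43 lay above a falling background. Ciita went the other way, at 104 CPM and 69.7 CPM (0.667, 0.557 to 0.797), which is just short of the limit for a lower call. The share of Ciita in the UMIs of Ciita and Cd74 was 1.63% (1.44 to 1.83) under lenvatinib and 0.787% (0.689 to 0.896) under combo. Markers of other cells moved in the B gate too. All 5 neutrophil markers were higher under combo (summed 349 and 28011 CPM) and all 4 NK markers were lower (568 and 83.0 CPM). Of 4 B markers besides Cd79a, 1 was lower and 0 were higher. Their part in the class II values was not tested.

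The B gate held plasma-type cells with 10 or more UMIs of Jchain, the joining chain of secreted antibody, 26 under lenvatinib and 31 under combo. The repressor Prdm1 is known to shut off Ciita in plasma cells. The Jchain-high cells carried 1 UMI of Ciita in each library, 137 and 185 CPM of H2-Aa, and 2821 and 2860 CPM of Cd74. Cd74 thus made up 83.8% and 78.8% of the UMIs of Cd74, H2-Aa, H2-Ab1 and H2-Eb1, against 54.3% and 53.5% in the rest of the gate. Without them the class II ratio of the gate was 1.51 (1.49 to 1.54), past the limit that the whole gate missed at 1.40 (1.38 to 1.42).

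Among the conventional dendritic gates, cDC1 changed little and cDC2 more. In cDC1 the summed ratio was 1.10 (1.08 to 1.12), H2-Ab1 was at 7346 and 7172 CPM, H2-DMb2 was higher (25.5 and 63.8 CPM, ratio 2.51, 1.39 to 4.73, on 17 and 39 UMIs) and Ciita was lower (217 and 144 CPM, 0.663, 0.503 to 0.870). In that gate 8.01% of all genes were higher and 10.6% lower, so 1 of 10 members in each direction is close to the background. In cDC2, H2-Aa was at 4389 and 6675 CPM (1.52, 1.45 to 1.59) and H2-Eb1 at 3336 and 5618 CPM (1.68, 1.601 to 1.77), while H2-DMb2 (70.1 and 44.9 CPM, 0.640, 0.381 to 1.04) and H2-Ob (48.1 and 21.5 CPM, 0.446, 0.208 to 0.874) were lower. There 4.89% of genes were higher and 20.3% lower, beside 2 of 10 members each way, and the median log2 ratio was -0.15 over all genes and 0.20 over the members. The interval of H2-DMb2 includes no difference. Markers of other cells moved in the cDC2 gate as well. All 3 plasmacytoid markers with enough UMIs were lower under combo, among them Bst2 (515 and 256 CPM) and Tcf4 (423 and 229 CPM), and Siglech was at 38.7 and 5.86 CPM. The monocyte gene Ly6c2 was at 441 and 121 CPM and Gzma at 595 and 195 CPM, whereas Chil3 (10.5 and 283 CPM) and 3 of 3 neutrophil markers with enough UMIs were higher. Their part in the class II values was not tested.

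Plasmacytoid cells, which make type I interferon, held class II at a like level in both libraries (ratio 1.09, 1.07 to 1.11). H2-Ob was called higher at 1.504 (0.863 to 2.69), on 21 and 39 UMIs, with an interval that includes no difference, and no other member passed 1.5-fold, against 5.21% of genes higher and 12.6% lower. Cells with at least 10 class II UMIs after thinning were 43.5% (37.7 to 49.4) under lenvatinib and 55.2% (49.4 to 61.0) under combo, and 74.8% and 89.3% before thinning.

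In Fscn1-gated cells 4 of 4 members with enough UMIs were lower under combo, where 34.2% of all genes were higher and 34.9% lower. Cd74 was at 7197 and 1980 CPM, H2-Aa at 2835 and 932 CPM, H2-Ab1 at 2188 and 916 CPM and H2-Eb1 at 2800 and 693 CPM. As the combo cells lacked the markers of mature dendritic cells, this compares unlike cells. In the 19 cells of the lenvatinib library, which had those markers, the peptide exchanger was low for the amount of class II, with H2-DMa at 42.2 CPM (15.5 to 91.9) and H2-DMb1 at 63.3 CPM (28.9 to 120). H2-DM genes took 0.928% (0.568 to 1.43) of the UMIs of H2-DM, H2-Aa, H2-Ab1, H2-Eb1 and Cd74 there, the lowest share of the 7 antigen-presenting gates under lenvatinib, where the next was cDC1 at 3.91% (3.65 to 4.18).

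In 3 gates Ciita and Cd74 moved apart between the libraries. The share of Ciita in the UMIs of Ciita and Cd74 was 1.70% (1.43 to 1.99) and 1.03% (0.826 to 1.27) in cDC1 and 1.40% (1.18 to 1.65) and 0.854% (0.661 to 1.08) in cDC2, lower under combo as in the B gate, with intervals that do not overlap. In monocyte (1.54% and 1.23%), macrophage (0.878% and 1.001%) and plasmacytoid cells (1.08% and 0.817%) the intervals overlapped.

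In the background gates, class II was 1.42-fold (1.37 to 1.48) higher under combo in T cells and 1.24-fold (1.17 to 1.31) in NK cells, and it was lower in neutrophils (0.467, 0.411 to 0.533). In the T gate H2-DMb1 (ratio 2.40), H2-Eb1 (1.85), Ciita (1.83) and H2-Aa (1.68) passed 1.5-fold upward, and in the NK gate H2-DMb1 did (1.60). For H2-DMb1 and H2-Eb1 the macrophage gate gave 2.40 and 1.55. The median log2 ratio in the T gate was 0.47 over members and -0.16 over all genes. H2-Oa was lower in T and NK cells. It was at 9.94 CPM under lenvatinib and 5.78 CPM under combo in the T gate (0.581, 0.473 to 0.710), and at 8.18 and 5.18 CPM in the NK gate (0.633, 0.429 to 0.916). Over all filtered cells, class II was at 1923 CPM under lenvatinib and 2654 CPM under combo.

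Of 39 further gene symbols listed for the pathway, 34 were in the matrices. March1 and March8 were each listed under an older and a newer symbol, and only the older was present. The factors that hold the X and Y boxes were counted at low levels. Rfxap, a subunit of the RFX complex, was higher in plasmacytoid cells (24.2 and 44.5 CPM, ratio 1.84, 1.37 to 2.50), and Rfx5 stood at 11.7 and 10.7 CPM there. Of 16 transcription genes with enough UMIs in that gate, 2 were higher and 3 were lower (Creb1, Irf4 and Jak2). Over all genes of the gate 5.21% were higher and 12.6% lower. In the B gate 1 of 16 transcription genes was higher and 5 were lower, among them Pax5, the factor of B-cell identity (365 and 178 CPM, 0.489, 0.440 to 0.542), Creb1 (0.498) and Nfya (0.638), a subunit of NF-Y. With 31.1% of all genes lower in that gate, 5 of 16 is at the background. Irf8, a factor of dendritic cells, was lower in cDC2 (335 and 70.3 CPM, 0.210, 0.144 to 0.297). Of the 2 cDC1 markers with enough UMIs in that gate, 1 was higher and 1, Irf8 itself, was lower. The cDC1 gene Clec9a, with too few UMIs for a call, was at 28.3 and 5.86 CPM there. All 3 plasmacytoid markers with enough UMIs, Irf8 among them, were lower. The part of other cell types in the Irf8 value was not tested.

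Among enzymes that make peptides ready for loading, the reductase Ifi30 and the proteases Ctsb and Ctsd differed in direction in the macrophage gate. Ifi30, which acts in the endosome, was higher in the macrophage gate (355 and 817 CPM, ratio 2.30, 1.95 to 2.72) and in cDC1 (364 and 687 CPM, 1.89, 1.61 to 2.22). The proteases Ctsb (6370 and 2981 CPM, 0.468) and Ctsd (3907 and 1543 CPM, 0.395) were lower in the macrophage gate, whereas Ctss (1.155), Ctsl (1.12) and Lgmn (1.002) were neither. In that gate 2 of 21 listed genes with enough UMIs were higher and 10 were lower, where 12.9% of all genes were higher and 21.1% lower. Ctss, which cuts the invariant chain, passed 1.5-fold only in Fscn1-gated cells. In the monocyte gate Ctsl was higher (100 and 200 CPM, 2.00, 1.65 to 2.43) and Cd83, which protects class II from the ubiquitin ligase March1, was lower (135 and 51.8 CPM, 0.383, 0.317 to 0.464), and none of the other 26 listed genes with enough UMIs there passed 1.5-fold.

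Genes outside the set were ranked by how closely they followed the summed members over the 20 combinations of 10 gates and 2 libraries, on log2(CPM + 1), among 3517 genes reaching 100 CPM in at least 1 of them. The closest were Plekho1 (Pearson r 0.946), Fgd2 (0.925), Gdi2 (0.891), Ifi30 (0.885) and Ly86 (0.873). Among members, Ciita reached 0.989 and H2-DMb1 0.937, whereas H2-Ob (0.618) ranked 187th and H2-Oa (0.572) 278th. The 20 points share 2 libraries and their depth, and the values are descriptive.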

How the data were processed

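Live CD45+ cells were sorted from liver tumors, and 3′ v3 libraries were prepared on the 10X Chromium platform, 1 for each of the 2 conditions. Raw UMI counts were deposited as matrices of genes by barcodes, which the authors made by mapping reads to mm10. Their processing notes give Cell Ranger 5.0.1, while the matrix files themselves carry version 6.0.1. The setting of the counting for reads shared between gene copies is not given in the sources used here.

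Cells with over 6000 genes or over 25% mitochondrial UMIs were removed. A cell entered a gate with at least 2 UMIs of the gate gene. Gates were filled in the order T, B, plasmacytoid, mature dendritic, cDC1, cDC2, macrophage, monocyte, NK and neutrophil, and a cell took the first gate it met. T and B cells needed 0 UMIs of the other 7 genes that set the first 8 gates, and NK cells and neutrophils 0 UMIs of all 8. The remaining gates needed 0 UMIs of Cd3e and Cd79a, and also 0 UMIs of C1qa for plasmacytoid and monocyte cells and at most 1 for cDC2. Cells that met no gate were left out of the comparisons, so gates are enriched for cells deep enough to show their gene. UMIs were summed per gate and library and given as CPM with exact Poisson intervals, ratios with exact conditional binomial intervals, and shares with exact Clopper-Pearson intervals, all at 95% (scipy 1.17.1, numpy 2.4.6, pandas 2.3.3). Totals were 98107503 UMIs under lenvatinib and 93583402 under combo, and sums per gate ranged down to 121224 UMIs in the mature dendritic gate under combo, where 1 UMI is a large step. With 1 library per condition, a gene was called at 1.5-fold and 50 UMIs over both libraries. For shares of single cells, each cell was thinned to 2000 UMIs.

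Scrublet (scanpy 1.11.5, expecting 6% doublets) was run on each library, marked 4.27% of cells under lenvatinib and 2.94% under combo as doublets, and these were removed only in an alternative. The ratio and thinning steps were tested on simulated data. Alternatives covered the UMIs needed for a gate, doublets, the cell filter, the genes in the CPM total, cells with neutrophil genes and the filter on low counts, and 3 more were added after the data had been seen, for cells with many Jchain UMIs, for stray UMIs of another gate's gene and for parts of the monocyte gate. Gene positions come from GENCODE M21, and promoter sequences from RefSeq (GRCm38.p6), which matched 7 of the 10 genes. Values were given for the 10 members in every gate and for genes of the pathway lists that passed 1.5-fold or serve as examples. The members, the gates and the lists were chosen with earlier results of these data known.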

Additional observations from a re-analysis of the deposited data

Results flagged for a closer look

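Class II was lower under combo in the monocyte gate and higher in the macrophage gate. The log2 ratio of combo to lenvatinib in the monocyte gate minus that in the macrophage gate was -1.38, and for the mature dendritic gate minus the macrophage gate it was -2.12. With 1 library per condition these differences between gates were not tested, and the combo cells of the mature dendritic gate lacked its markers.

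Cells that met no gate and entered no comparison held class II at 1970 CPM under lenvatinib and 2634 CPM under combo, above the 164 and 233 CPM of the T gate. Of these UMIs, 51.4% under lenvatinib and 49.9% under combo lay in 821 and 655 cells that had 2 or more UMIs of 1 gate gene and a UMI of another, 29.7% and 30.2% in cells with at most 1 UMI of each gate gene, and 18.9% and 19.95% in cells with none.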

How the results depend on the processing

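The class II ratio of each antigen-presenting gate kept its direction under all 7 alternatives that were run for it (8 in the B gate), and its size moved. On the log2 scale of combo over lenvatinib, the B gate gave 0.48, and 0.39 with at least 1 UMI of the gate gene, 0.45 with at least 3, 0.45 without called doublets, 0.59 without cells with neutrophil genes, 0.42 with 1 stray UMI of another gate's gene allowed and 0.60 without cells with 10 or more Jchain UMIs. The monocyte gate gave -0.83, and -0.90, -0.58 and -0.66 with at least 1 UMI, without cells with neutrophil genes and with a stray UMI allowed. The macrophage gate gave 0.54, and 0.997 with at least 1 UMI, 0.46 with no filter on cells, 0.60 with mitochondrial, ribosomal and hemoglobin genes left out of the total, and 0.47 without cells with neutrophil genes. The cDC1 gate gave 0.13, and 0.096 with at least 3 UMIs. The cDC2 gate gave 0.52, and 0.60 with at least 3 UMIs, 0.55 without doublets, 0.56 with the reduced total and 0.57 without cells with neutrophil genes. The plasmacytoid gate gave 0.12, and 0.35 with at least 1 UMI, 0.22 with at least 3, 0.15 with the reduced total, 0.19 without cells with neutrophil genes and 0.19 with a stray UMI allowed. Fscn1-gated cells gave -1.58, and -1.97 with at least 1 UMI, -5.11 with at least 3, -1.28 with the reduced total and -5.33 without cells with neutrophil genes, where 5 combo cells were left. Pairs of a member and a gate that were higher under combo numbered 8, and 14 with at least 1 UMI of the gate gene and 13 with no filter on low counts. The lower pairs numbered 12, and between 10 and 15 under the alternatives. In the background gates NK moved from 0.31 to 1.08 and neutrophil from -1.10 to -0.15 with at least 1 UMI of the gate gene, NK to 0.63 with no filter on cells, and T from 0.51 to 0.78 with a stray UMI allowed, all with their direction kept, although the neutrophil interval then includes no difference. The causes of these moves were not tested. No paired analysis was possible because each condition had 1 library.

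The main limit is the number of libraries. An interval for counting error says nothing of the spread between mice, and the gates for cDC1, cDC2, macrophage and mature dendritic cells hold few cells, so that a handful of cells can set a value. A cell with fewer than 2 UMIs of its gate gene is missed.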
